A study of Mus musculus with 8 samples.

Results

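The plasminogen activator system was followed through 6 genes, Plau, Plaur, Plat, Serpine2, Serpinb2 and Tfpi2, in mouse fat cells exposed to asbestos fibres. The members are the non-control probes that carry these gene names on the array. Each gene had 1 probe, printed as 1 spot, and 5 of the 6 passed the background filter and were tested among 22901 genes. Mature adipocytes differentiated from 3T3-L1, a mouse preadipocyte line, received chrysotile, crocidolite or amosite fibres at a labelled 10 mg/cm2, or physiological saline as the control, and total RNA was taken at 72 h. The dose unit is given as the labels have it and could not be checked. Chrysotile is the serpentine form of asbestos, and crocidolite and amosite are amphiboles. Each of the 4 groups had 2 arrays, 8 in all. All come from this 1 cell line, and the labels do not say whether the 2 replicates of a group were grown apart. The p-values therefore rest on a spread between arrays that may be no more than technical.

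Plasminogen, a circulating zymogen, is cut to the broad protease plasmin by 2 activators, urokinase (encoded by Plau) and tissue plasminogen activator (Plat). Urokinase is held at the cell surface by its receptor uPAR (Plaur), so that plasmin forms where a cell meets matrix, and serpins and Kunitz inhibitors restrain the cascade at the activators and at plasmin. In adipose tissue the system is known for matrix remodelling as fat cells differentiate.

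The probes are shown because every value below is the brightness of these short sequences. Each is 60 bases long, and the first 30 bases are given in lower case, 5′ to 3′ as the deposited array files give them, with no base singled out.
Plau: gtgtatttctgtatctaactgcaagtctag
Plaur: ccctcgtgttgtcttctttggacctcagtt
Plat: aaggttacgaattacctagactggattcac
Serpine2: aagcaaaaattgaagtcagtgaagatggaa
Serpinb2: catcataagtaagcatgcttacttacacac
Tfpi2: tgtgataagcccaatatacggtttttcttc

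On mouse build mm9 the Plau probe lies on chromosome 14 at 21662242 to 21662301, the Plaur probe on chromosome 7 at 25260569 to 25260628 and the Plat probe on chromosome 8 at 23892531 to 23892590. The Serpinb2 probe lies on chromosome 1 at 109422046 to 109422105 and the Tfpi2 probe on chromosome 6 at 3915439 to 3915498, minus strand. The Serpine2 probe, on chromosome 1 at 79793476 to 79796093, minus strand, spans 2618 genomic bases with 60 bases of probe, so it crosses a splice junction. Among the 55681 non-control probes, no other shared a run of 20 bases with a member's probe on either strand. Which exon or non-coding part of the transcript each probe lies in was not analysed here.

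Levels are log2 processed intensity relative to the 75th percentile of each array, so 0 is that percentile and each step of 1 is a doubling. Between 31293 and 34983 of 55681 probes were well above background on an array, by the scanner software's own call. All 10 adipocyte markers examined, Adipoq, Fabp4 and Pparg among them, were well above background on every array. With chrysotile 1 of the 10 stood above saline (median -0.15), with crocidolite 2 (median -0.17) and with amosite 1 (median -0.07), and none passed the test. The replicate number of an array was also its column on the slide and the group its row. Saline lay in row 1, chrysotile in row 2, crocidolite in row 3 and amosite in row 4. Effects of group and of slide row therefore cannot be told apart, and the fibres stand in row order from chrysotile to amosite. Same-numbered arrays deviated together (correlations of 0.25 to 0.46 over genes in the 6 pairs of groups). Differences from saline within each replicate number, and adjusted p-values from a fit with that number as a block, are therefore given for the members. Lower values in such bulk RNA cannot separate fewer expressing cells from less RNA per cell.

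Plau, the gene of urokinase, had its highest level with chrysotile and its lowest with saline. Its levels were -3.34 and -2.95 with chrysotile, -3.70 and -3.35 with crocidolite, -4.36 and -4.08 with amosite, against -5.70 and -4.62 with saline. No pair of neighbouring groups overlapped in this order. The replicate 2 array was the higher in all 4 groups, by a mean of 0.52, where the 95th percentile over all genes was 0.49. The 3 fibre groups were well above background on both arrays and saline on neither. The probe is dim: its processed intensities were 40.3 and 57.2 with chrysotile, 35.0 and 43.4 with crocidolite, 19.5 and 23.5 with amosite, and 7.46 and 13.8 with saline. The scanner's own error for that 1 spot was 11.7% to 13.4% of the intensity with chrysotile, and 60.9% and 28.6% on the saline arrays.

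Because saline was not well above background on either array, only approximate lower bounds are given for the fibres. Such a bound sets the fibre mean against saline values raised to the lowest level of any probe called above background on that array. It is not a strict limit, because a probe can lie above that level and not be called. On saline replicate 1 that level was -4.80, while Plaur, at -3.19, was not called. By this bound Plau was at least 2.81-fold higher with chrysotile, at least 2.16-fold higher with crocidolite and at least 1.34-fold higher with amosite. With another background correction, given with Tfpi2 below, all 3 differences were smaller than these bounds. The fitted log2 differences from saline were 2.01 ± 0.36 for chrysotile, 1.64 ± 0.36 for crocidolite and 0.94 ± 0.36 for amosite (SE, n = 2 arrays per group). Within replicates 1 and 2 the differences were 2.36 and 1.67 for chrysotile, 2.001 and 1.27 for crocidolite, and 1.34 and 0.55 for amosite. None passed the threshold of 0.05 after Benjamini-Hochberg adjustment over all genes in limma (adjusted p = 0.84, 0.52 and 1.00, and 0.26, 0.28 and 1.00 with the replicate block). The size of all 3 depends on the saline arrays. Without saline replicate 1 they were 1.48, 1.098 and 0.40, and without saline replicate 2 they were 2.55, 2.17 and 1.48. The larger values rest on saline replicate 1 alone, a spot not well above background with a scanner error of 60.9%.

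Plaur, the gene of the urokinase receptor, followed the same order of groups. Its levels were -1.54 and -1.53 with chrysotile, -2.003 and -2.15 with crocidolite, -2.34 and -2.80 with amosite, against -3.19 and -2.84 with saline. Again no neighbouring groups overlapped, although the lower amosite array lay only 0.04 above the higher saline array of the same replicate number. The saline replicate 1 array was not called well above background, though its intensity was 42.5 and was not a surrogate. The difference from saline was 1.48 ± 0.20 for chrysotile (2.78-fold, 95% interval 1.00 to 1.95), 0.94 ± 0.20 for crocidolite (1.91-fold, 0.46 to 1.41) and 0.44 ± 0.20 for amosite (1.36-fold, -0.03 to 0.92). In limma these had adjusted p = 0.39, 0.50 and 1.00, so none passed (0.43, 0.28 and 1.00 with the replicate block). The replicate pairs gave 1.65 and 1.31 for chrysotile, 1.19 and 0.68 for crocidolite, and 0.85 and 0.04 for amosite. The amosite value was 0.22 without amosite replicate 1 and 0.67 without amosite replicate 2. It was 0.27 without saline replicate 1.

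Plat, the gene of tissue plasminogen activator, gave no such order. Its levels were 0.07 and -0.24 with chrysotile, 0.25 and -0.47 with crocidolite, 0.39 and -0.42 with amosite, against 0.40 and -0.66 with saline. The replicate 1 array was the higher in all 4 groups, by a mean of 0.72, and the groups overlapped throughout. Within replicates 1 and 2 the differences from saline were -0.34 and 0.42 for chrysotile, -0.15 and 0.20 for crocidolite, and -0.02 and 0.24 for amosite. The differences from saline were 0.04 ± 0.45 for chrysotile (95% interval -1.05 to 1.13), 0.02 ± 0.45 for crocidolite (-1.07 to 1.11) and 0.11 ± 0.45 for amosite (-0.98 to 1.20). These intervals, from the fit without the block, admit changes of about the size seen for Plaur with crocidolite, in either direction. With the replicate block they were narrower and did not reach that size. They were then -0.44 to 0.53 for chrysotile, -0.46 to 0.51 for crocidolite and -0.37 to 0.60 for amosite. No difference was detectable at either precision. Limma's adjusted p was 1.00 for each of the 3 (0.95, 0.97 and 1.00 with the replicate block), and the sign of each value changed when 1 array was left out.

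**Figure D1:**
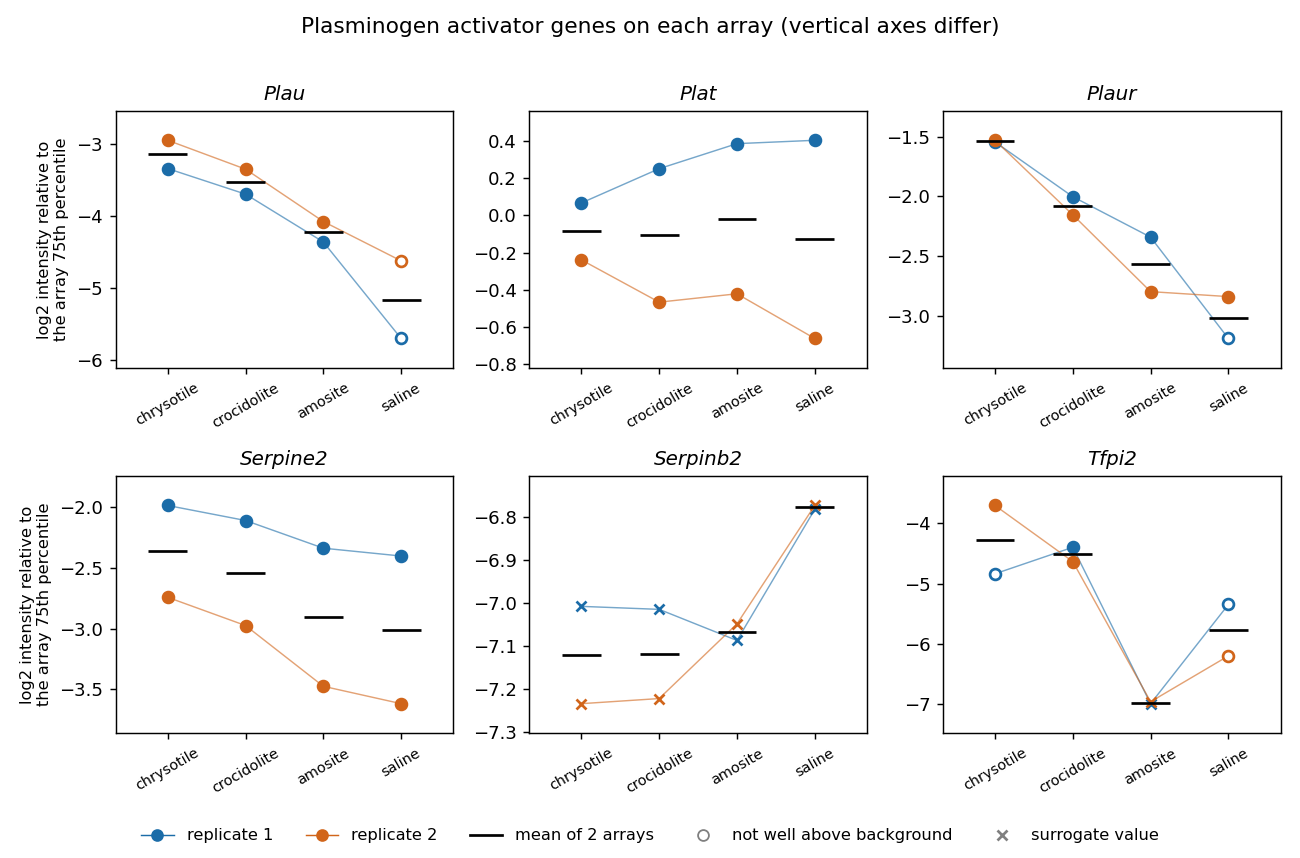
Levels of the 6 genes on each of the 8 arrays, as log2 processed intensity relative to the array's 75th percentile, with chrysotile, crocidolite, amosite and saline from left to right. Points joined by a line share a replicate number, black bars are means of 2 arrays, open points were not well above background and crosses are surrogate values. Plau and Plaur step down across the 4 groups, and Plat and Serpine2 separate mainly by replicate number.

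Serpine2 encodes protease nexin 1, a serpin that inhibits urokinase, tissue plasminogen activator and thrombin. Its levels were -1.99 and -2.74 with chrysotile, -2.11 and -2.97 with crocidolite, -2.34 and -3.48 with amosite, against -2.40 and -3.62 with saline. Every group overlapped with its neighbours, because the replicate 2 array was lower in all 4 groups, by a mean of 0.99. Over all genes tested the same measure had its 5th percentile at -0.49. Within each replicate number, however, the arrays ran in the order of Plau and Plaur. The chrysotile array stood above its saline partner by 0.42 and 0.88, the crocidolite array by 0.29 and 0.64, and the amosite array by 0.06 and 0.14.

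The fitted Serpine2 differences from saline were 0.65 ± 0.58 for chrysotile, 0.47 ± 0.58 for crocidolite and 0.10 ± 0.58 for amosite in limma (adjusted p = 0.93, 0.89 and 1.00). The chrysotile value was 1.25 without saline replicate 1, 0.04 without saline replicate 2, 0.27 without chrysotile replicate 1 and 1.02 without chrysotile replicate 2. With the replicate block the error was 0.14, and the adjusted p was 0.43, 0.33 and 1.00, so these did not pass either. The order from chrysotile through crocidolite and amosite to saline, held within both replicate numbers, was found in 149 of 22901 genes (0.651%). Plau, Plaur and Serpine2 were 3 of them. This order was chosen after the values were seen, so the share is a description. With no overlap between any neighbouring groups, Plau and Plaur were among 22 genes.

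Serpinb2 encodes plasminogen activator inhibitor 2, known as a strongly inducible product of macrophages and keratinocytes. It was not well above background on any array. The software had put a surrogate, a value derived from the array's noise, in place of the signal on all 8, with intensities of 2.94 to 3.52. No order or fold is given for it, and it was not tested.

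Tfpi2 encodes a Kunitz-type inhibitor of plasmin and related proteases that is laid down in the matrix. It passed the background filter only through crocidolite. Its levels were -4.84 and -3.71 with chrysotile, -4.40 and -4.64 with crocidolite, -6.99 and -6.96 with amosite, against -5.35 and -6.20 with saline. Both crocidolite arrays and 1 of the chrysotile arrays were well above background, and no amosite or saline array was. Both amosite values were surrogates, at intensities of 3.15 and 3.19, so their position below saline has no meaning as an order.

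By such approximate bounds on group means, Tfpi2 was at least 1.29-fold higher with chrysotile and at least 1.09-fold higher with crocidolite than with saline. The chrysotile bound rests on replicate 2, since the replicate 1 level of -4.84 lay below the raised saline mean of -4.64. The crocidolite bound rests on replicate 1, since the replicate 2 level of -4.64 was about equal to that raised mean. The replicate pairs differed by 0.51 and 2.49 for chrysotile and by 0.95 and 1.56 for crocidolite. Against amosite the bounds were at least 1.42-fold for chrysotile and at least 1.20-fold for crocidolite. There too the chrysotile replicate 1 array lay below the raised mean, -4.77 for amosite. The fitted differences from amosite, 2.70 ± 0.42 and 2.46 ± 0.42, are larger than the bounds because they rest on the surrogate values. In limma they had adjusted p = 0.93 and 0.87 (0.56 and 0.43 with the replicate block), and those from saline, 1.501 ± 0.42 and 1.26 ± 0.42, had 0.89 and 0.65 (0.44 and 0.36). With normexp background correction, the crocidolite difference from saline was -0.01. That correction works from the unprocessed mean signal of each spot and adds an offset of 50, which compresses dim probes. Why the Tfpi2 difference changed was not tested. By the same correction Plau stood at 0.39 for chrysotile, 0.24 for crocidolite and 0.13 for amosite. Chrysotile against crocidolite gave 0.25 ± 0.42, with replicate pairs of opposite sign (-0.44 and 0.93).

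The fibres were also compared with each other at their common labelled dose and time, which asks whether the serpentine and the 2 amphiboles differ. Chrysotile stood above amosite for Plau by 1.07 ± 0.36 (2.10-fold, 95% interval 0.19 to 1.95) and for Plaur by 1.03 ± 0.20 (2.04-fold, 0.56 to 1.51). Crocidolite stood above amosite for Plau by 0.69 ± 0.36 (1.62-fold, -0.18 to 1.57) and for Plaur by 0.49 ± 0.20 (1.40-fold, 0.02 to 0.97). Chrysotile stood above crocidolite for Plau by 0.38 ± 0.36 (1.30-fold, -0.50 to 1.26) and for Plaur by 0.54 ± 0.20 (1.46-fold, 0.07 to 1.02). Both replicate pairs had the same sign in each of these 6 differences.

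None of these fibre differences passed in limma. The smallest adjusted p of any member was 0.93 for chrysotile against amosite, 0.87 for crocidolite against amosite and 1.00 for chrysotile against crocidolite. With the replicate block they were 0.56, 0.43 and 1.00. The intervals also leave room for sizeable differences between chrysotile and crocidolite, so alike levels are not shown. For Plat the fibre differences were 0.02, -0.07 and -0.09 with chrysotile against crocidolite, chrysotile against amosite and crocidolite against amosite, each ± 0.45. For Serpine2 they were 0.18, 0.54 and 0.36, each ± 0.58, positive in both replicate pairs in each comparison.

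Across all 22901 genes limma called 0 (0%) in each of the 6 comparisons at an adjusted p of 0.05. At an unadjusted p of 0.05 it had 1262 for chrysotile, 1672 for crocidolite and 610 for amosite against saline. For chrysotile against crocidolite, chrysotile against amosite and crocidolite against amosite it had 634, 993 and 1176. If no gene differed, a share of about 0.05 of the 22901 would pass, so these counts are descriptions only. Of the 5 tested members, both arrays lay above both saline arrays in 3 with chrysotile (14.2% of all genes), 3 with crocidolite (14.6%) and 2 with amosite (8.16%). Between fibres, chrysotile lay wholly above crocidolite in 2 (12.8% of all genes), chrysotile above amosite in 3 (17.8%) and crocidolite above amosite in 3 (17.6%). Plau and Plaur are in all 6 counts and Tfpi2 in the 4 that hold 3. Plau, Plaur and Tfpi2 passed the filter only through groups in which they were bright, so these counts are descriptions of the members and lend them no support.

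**Figure D2:**
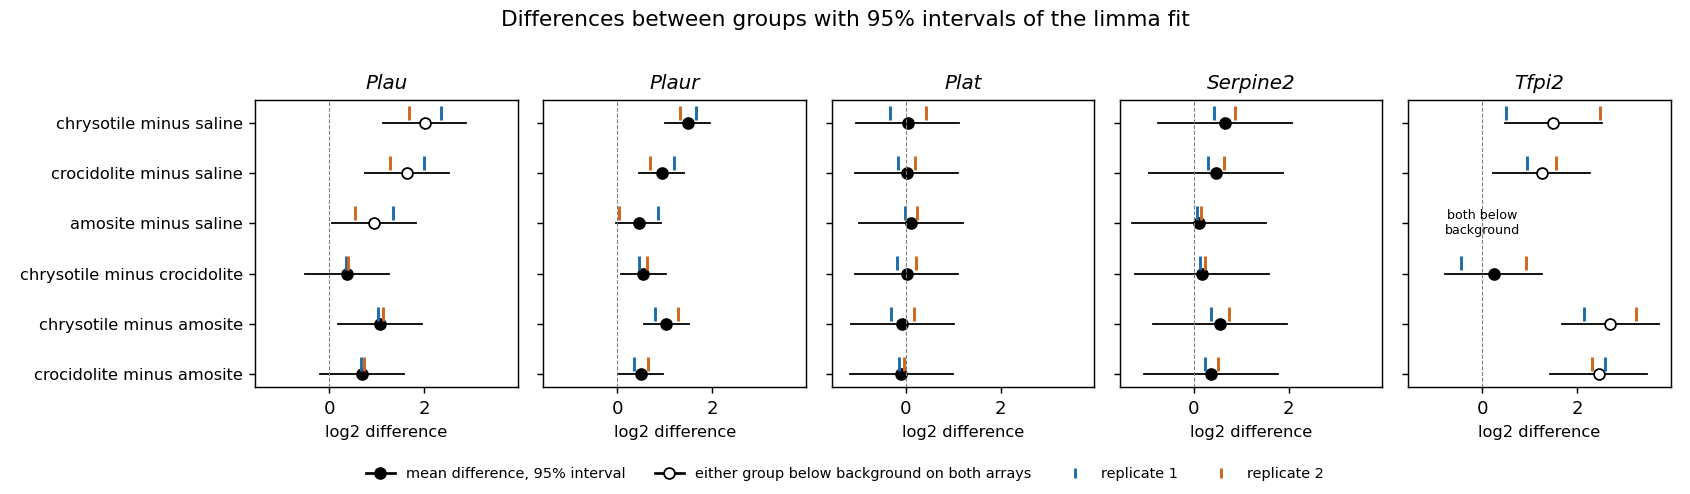
Differences between groups in log2 level for the 5 tested genes, first group minus second, with 95% intervals of the limma fit (n = 2 arrays per group). Ticks above each point are the differences within replicate 1 and replicate 2. Open points mark a comparison in which a group was well above background on neither of its arrays. Tfpi2 has no point or ticks for amosite minus saline, where both groups were below background. For Plau and Plaur all ticks lie above 0, and for Plat they fall on both sides of 0 in 5 of the 6 comparisons.

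Over the 8 arrays Plau and Plaur varied together (Pearson r = 0.90, Spearman rho = 0.95), as did Plat and Serpine2 (r = 0.86, rho = 0.74). Plau with Serpine2 gave r = 0.11 and Plau with Plat r = -0.32. Of 10 pairs of members these are descriptions over 8 arrays that share their groups and replicate numbers. The genes with a symbol most like Plau by Pearson correlation were Pdia5, a protein disulphide isomerase (r = 0.98), Vcpkmt (0.96) and Zc3h15 (0.96). Those most like Plaur were Eps8, an adaptor of receptor signalling to actin (0.99), Gpr137b (0.98) and Galk1, galactokinase (0.97). Eps8 differed from saline by 0.61 with chrysotile, 0.37 with crocidolite and 0.15 with amosite, and Pdia5 by 0.62, 0.62 and 0.27. Retreg3, Ubxn2a and Mfap1b were most like Plat (1.00, 0.99 and 0.99), Epdr1, 4933412E12Rik and Agpat4 most like Serpine2 (0.99 each), and Etv6, Ccdc166 and Rab31 most like Tfpi2 (0.99, 0.97 and 0.97). Such values are not confined to the genes named. Among the 15292 tested genes with a symbol, other than the member itself, 63 exceeded 0.9 for Plaur and 70 for Plau. For Tfpi2 there were 95, for Plat 274 and for Serpine2 371.

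The rest of the cascade was read from lists of 57 genes, 48 of which were tested. None passed in limma in any comparison (0 higher, 0 lower). With chrysotile 39 of the 48 lay above saline (median 0.17), with crocidolite 38 (median 0.18) and with amosite 25 (median 0.01). Over all genes tested the medians were -0.01, -0.02 and -0.02, and 48.8%, 46.3% and 44.6% lay above saline.

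Plasminogen itself, Plg, was well above background on 1 of 8 arrays, in saline, and was not tested. Also not tested were 3 inhibitors of its list that were also too dim, Serpinf2, Serpina5 and A2m, named here after their values were seen. Cpb2, a carboxypeptidase that shields fibrin, stood at 0.24 ± 0.21 with chrysotile, -0.01 with crocidolite and 0.22 with amosite. Among the 4 plasminogen receptor genes, Anxa2, the annexin that docks plasminogen and tissue plasminogen activator, stood at 0.39 ± 0.11 with chrysotile, 0.43 ± 0.11 with crocidolite and -0.07 ± 0.11 with amosite. The surface-bound enolase gene Eno1 stood at 0.39 ± 0.13, 0.32 ± 0.13 and 0.08 ± 0.13 in the same order. Plgrkt, the plasminogen receptor with a C-terminal lysine, stood at -0.06, -0.005 and -0.04, each ± 0.12.

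Of 12 partners and clearance receptors of uPAR, 10 lay above saline with chrysotile, 9 with crocidolite and 6 with amosite. Their medians were 0.22, 0.22 and -0.01. Mrc2, a collagen receptor that binds uPAR, stood at 0.86 ± 0.41 with chrysotile, 0.73 ± 0.41 with crocidolite and 0.57 ± 0.41 with amosite, with the saline arrays at 1.05 and 2.36. The fibronectin receptor subunit Itga5 stood at 0.58 ± 0.26, 0.26 ± 0.26 and -0.05 ± 0.26. Lrp1, which takes up urokinase bound to its inhibitors, stood at 0.23 ± 0.16, 0.29 ± 0.16 and -0.04 ± 0.16. In the tissue factor and thrombin branch, 5 of 7 tested genes lay above saline with chrysotile, 6 with crocidolite and 3 with amosite. The medians of this branch were 0.09, 0.16 and -0.03. Procr, the protein C receptor, stood at 0.40 ± 0.21, 0.19 ± 0.21 and -0.05 ± 0.21 in that order. Coagulation factor F7 stood at -0.22 ± 0.47, -0.65 ± 0.47 and 0.18 ± 0.47, with 1 of the crocidolite arrays not well above background.

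Of 5 tested growth factor genes whose precursors are cut by these proteases, 5 lay above saline with chrysotile, 5 with crocidolite and 3 with amosite. The medians were 0.08, 0.31 and 0.04. Bdnf stood at 0.64 ± 0.20 with chrysotile, 0.79 ± 0.20 with crocidolite and 0.12 ± 0.20 with amosite, and Hgf, whose protein urokinase can activate, at 0.55 ± 0.23, 0.73 ± 0.23 and -0.005 ± 0.23. Among related inhibitors, the Kunitz inhibitor Spint2 stood at -0.64 ± 0.23 with chrysotile, -0.16 ± 0.23 with crocidolite and -0.11 ± 0.23 with amosite, and the serpin Serpinb6a at 0.45 ± 0.21, 0.41 ± 0.21 and 0.04 ± 0.21. All of these were short of the threshold.

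Of 11 transcription factors known to act on the Plau gene, 10 lay above saline with chrysotile, 10 with crocidolite and 5 with amosite. Over all genes tested 48.8%, 46.3% and 44.6% lay above saline. The list medians were small, 0.12, 0.17 and -0.08, and the lowest values were -0.03, -0.21 and -0.30. Fosl1, a subunit of AP-1 (the FOS and JUN dimer), had levels of -0.19 and 0.78 with chrysotile, 0.29 and -0.24 with crocidolite, -1.60 and -2.08 with amosite, against -1.69 and -2.01 with saline. The chrysotile and crocidolite arrays all lay above the amosite and saline arrays. Fosl1 is named because its difference was the largest of this list. Of all genes, 14.2% lay wholly above saline with chrysotile and 14.6% with crocidolite. Against amosite these shares were 17.8% and 17.6%. The share meeting all of these at once was not counted. Its differences from saline were 2.14 ± 0.37 for chrysotile (4.42-fold), 1.87 ± 0.37 for crocidolite (3.67-fold) and 0.01 ± 0.37 for amosite, with limma's adjusted p = 0.84, 0.49 and 1.00. Fos stood at 0.61 ± 0.53, 0.87 ± 0.53 and 0.08 ± 0.53.

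**Figure D3:**
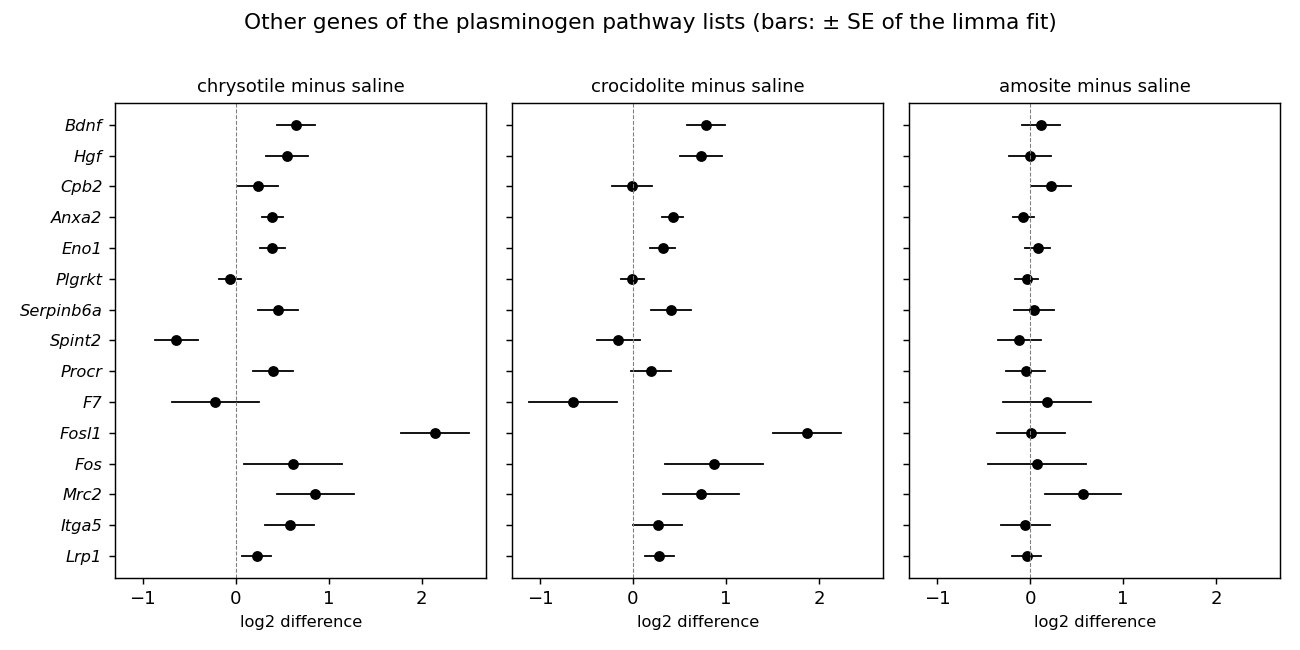
Log2 differences from saline of the tested genes of the cascade that the text names, with chrysotile, crocidolite and amosite. Bars are ± SE of the limma fit (n = 2 arrays per group). Fosl1 lies farthest to the right with chrysotile and crocidolite, at 2.14 and 1.87, and close to 0 with amosite.

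Promoter windows of 250 bases before to 50 after a transcription start were available for 4 of the 6 members, in 7 windows, from RefSeq on build GRCm38.p6. None was available for Plau or Plat, so their promoters were not searched. The 7 windows were searched on both strands for the AP-1 type motif TGANTCA and the GC box GGGCGG. Plaur and Serpine2 are shown because they shared the order of the groups within each replicate number, and capitals mark the AP-1 type motif. The Plaur window is chr7:24462233-24462532, plus strand, and the Serpine2 window is chr1:79858616-79858915, minus strand.
Plaur: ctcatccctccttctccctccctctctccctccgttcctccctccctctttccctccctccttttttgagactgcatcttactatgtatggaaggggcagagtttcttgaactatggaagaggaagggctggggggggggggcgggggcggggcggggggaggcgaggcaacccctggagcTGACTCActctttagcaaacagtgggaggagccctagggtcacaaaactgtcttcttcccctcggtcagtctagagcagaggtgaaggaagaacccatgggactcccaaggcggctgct
Serpine2: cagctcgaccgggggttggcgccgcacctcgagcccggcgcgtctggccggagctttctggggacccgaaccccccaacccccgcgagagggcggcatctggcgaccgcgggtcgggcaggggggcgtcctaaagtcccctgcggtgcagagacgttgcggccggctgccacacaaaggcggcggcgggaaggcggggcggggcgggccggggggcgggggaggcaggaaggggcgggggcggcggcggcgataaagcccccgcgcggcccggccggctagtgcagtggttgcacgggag

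The Plaur window held 1 AP-1 type match, beginning 69 bases before the start, and 3 GC boxes. The Serpine2 window held no AP-1 type match and 6 GC boxes. Of the other windows, both of Serpinb2 and 1 of 3 of Tfpi2 held an AP-1 type match. The Serpinb2 windows overlap, and their match is the same site. Of all 32851 promoter windows of this length, 7.81% held the AP-1 type motif and 35.7% the GC box. A match is only these letters in this window.

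Marker genes of other cells that the culture could hold were read beside these results. The summed level of 7 preadipocyte and fibroblast markers, in units of the array's 75th percentile, was 437 to 590 with chrysotile, 423 to 534 with crocidolite and 444 to 549 with amosite, against 484 to 509 with saline. All 7 were above background on all arrays. Of the 7, 4 stood above saline with chrysotile (median 0.07), 4 with crocidolite (median 0.23) and 2 with amosite (median -0.01). They ranged from Dlk1, at -0.23 ± 0.46 with chrysotile, -0.38 ± 0.46 with crocidolite and -0.005 ± 0.46 with amosite, to S100a4, at 1.25 ± 0.41, 1.06 ± 0.41 and 0.91 ± 0.41. The S100a4 saline arrays lay far apart, at 3.95 for replicate 1 and 4.98 for replicate 2. Its levels were 5.88 and 5.57 with chrysotile, 5.77 and 5.29 with crocidolite, and 5.75 and 5.00 with amosite. The summed level of 7 macrophage markers was 7.61 to 9.94 with chrysotile, 8.59 to 9.70 with crocidolite and 6.40 to 8.50 with amosite, against 9.27 to 9.35 with saline. That sum is carried by the brightest marker, Csf1r, which stood at -0.45 ± 0.19 with chrysotile, -0.37 ± 0.19 with crocidolite and -0.46 ± 0.19 with amosite. Of 6 tested macrophage markers, 4 stood above saline with chrysotile (median 0.35), 5 with crocidolite (median 0.30) and 4 with amosite (median 0.11). Mpeg1 had the highest value with chrysotile and with crocidolite, 0.96 ± 0.82 and 0.99 ± 0.82, and stood at -0.31 ± 0.82 with amosite. These 4 markers were singled out after their values were seen, and no marker passed the test. Of 5 endothelial markers 2 or 3 were above background on an array, Cdh5 and Tie1 on none. The part of these cells in the plasminogen activator values was not tested.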

How the data were processed

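Cy3-labelled RNA of each sample was read on 1 of 8 Agilent mouse arrays, all on 1 slide. Each deposited value is the linear intensity of a spot: per the file headers, Feature Extraction 10.7.1.1 (10.7 per the submitters' processing notes) had subtracted background, detrended each array and put surrogates near background, without scaling between arrays. The deposited value table equals them, with a largest difference of 0.

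From these, log2 intensity was centred on each array's 75th percentile (340 to 453 in linear intensity). Control spots and outlier spots (99 to 183 per array) were left out, as were 9 probes lacking a value on some array. Probes well above background on both arrays of at least 1 group (33044) were kept, the brightest standing for each gene. Through transcript accessions 26762 probes took their current symbol, and others through unique aliases. All 22901 genes were fitted together in R 4.3.3 with limma 3.58.1 (lmFit and eBayes, 4 residual and 2.22 prior degrees of freedom), two-sided, Benjamini-Hochberg threshold 0.05. The fit was run on simulated data with known changes, drawn with independent noise on each array. That setting leaves out the deviations shared by same-numbered arrays, so it does not test the fit for them. The number of arrays limits the precision.

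Members, lists and tests were chosen with earlier results of these data known. Named genes are the members, the 3 genes most correlated with each, Plg, Plgrkt and Lrp1, and the 2 largest absolute differences from saline of each list. One further gene of this rule is not reported here. Alternatives covered background, scaling, filter, probe choice, design, prior and each array left out. Same-numbered arrays paired by slide column, with correlations of 0.25 to 0.46, and the first principal component (32.3% of variance) separated the numbers, a hint from the data only. With 1 slide and 1 scan date, neither could serve as a block.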

Additional observations from a re-analysis of the deposited data

How the results depend on the processing

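No plasminogen activator gene was called under any of 20 alternatives, 1 of which (the replicate block with a trended and robust prior) was chosen after seeing the data. With the replicate block alone the number called stayed at 0 in all 6 comparisons, for members and for all genes, and no call changed. Plau and Plaur kept the direction of each difference in every alternative that gave a value. Of 563 alternative values for members, 27 were reversed, 15 of Plat, 9 of Serpine2 and 3 of Tfpi2. With normexp correction Plat stood at -0.010 and Tfpi2 at -0.011 for crocidolite and Serpine2 at -0.074 for amosite, against saline. With median scaling Plat stood at -0.12 for chrysotile against crocidolite and 0.033 for crocidolite against amosite. With quantile normalization Tfpi2 stood at -0.11 for chrysotile against crocidolite. With 1 array left out, Plat ranged from -0.49 to 0.58 for chrysotile, -0.51 to 0.55 for crocidolite and -0.42 to 0.64 for amosite against saline, from -0.34 to 0.38 for chrysotile against crocidolite, -0.47 to 0.34 for chrysotile against amosite and -0.49 to 0.31 for crocidolite against amosite. Serpine2 ranged from 0.04 to 1.25 for chrysotile, -0.14 to 1.08 for crocidolite and -0.50 to 0.71 for amosite against saline, from -0.25 to 0.61 for chrysotile against crocidolite, -0.027 to 1.11 for chrysotile against amosite and -0.20 to 0.93 for crocidolite against amosite. Tfpi2 ranged from -0.32 to 0.81 for chrysotile against crocidolite. In these fits the lone array of a group is assumed to vary like the other groups.

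Calls over all genes were 0 in the main setting. Against saline they were 3, 2 and 2 for chrysotile, crocidolite and amosite with quantile normalization, 2, 1 and 2 with median scaling, and 6 and 1 for chrysotile and crocidolite with the added alternative. With 1 array left out they ranged from 0 to 65, 0 to 47 and 0 to 59 for chrysotile, crocidolite and amosite against saline, highest without saline replicate 2, and from 0 to 1 for chrysotile against crocidolite and against amosite. The cause was not tested. Median scaling moved all genes by 0.18 for crocidolite against saline, -0.14 for chrysotile against crocidolite and 0.12 for crocidolite against amosite. Plau, Plaur and Tfpi2 gave no value where probes above background on all 8 arrays were required. Signal near background limits Plau and Tfpi2.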
